A study of Mus musculus with 15 samples.

Results

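The genes described here are 37 members of transforming growth factor beta (TGF-beta) and bone morphogenetic protein (BMP) signalling and of mesenchymal transition. They were taken by symbol from a table of read counts for 23337 genes, and all 37 were found in it. RNA had been sequenced from heart cells sorted as positive for CD31, an endothelial surface protein, and negative for CD45, a leukocyte protein. Every mouse carried STING fl/fl, loxP-flanked alleles of the gene for the DNA-sensing adaptor STING. Mice termed KO were also Cad5CreERT2+/+, in which the endothelial Cad5 promoter drives an inducible Cre recombinase, and mice termed WT were Cad5CreERT2-/-. The operation was transverse aortic constriction (TAC), which narrows the aorta and loads the left ventricle, or a sham operation, and hearts were collected 4 weeks later. The groups were 3 WT sham mice (numbers 131 to 133), 5 WT TAC (134 to 138), 3 KO sham (348 to 350) and 4 KO TAC (351 to 354), with 1 library per mouse. The WT and KO mice came from separate number series, and only KO mice carried Cre, so STING deletion, Cre and number series cannot be told apart. Age, sex and tamoxifen dosing are not given in the sources used here.

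TGF-beta, activin and BMP ligands bind pairs of type I and type II receptor kinases, which phosphorylate receptor SMAD proteins. SMAD2 and SMAD3 carry the TGF-beta and activin signal, SMAD1 and SMAD5 the BMP signal, and both kinds enter the nucleus with SMAD4. In endothelium the type I receptor ALK1 (Acvrl1) and its co-receptor endoglin (Eng) favour the BMP branch, whose classical target genes are Id1, Id2 and Id3. TGF-beta signalling is known for its part in cardiac fibrosis and for endothelial-to-mesenchymal transition, in which factors of the Snail, Twist and Zeb families act.

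Total counts ran from 1362346 in WT sham 133 to 15670319 in WT TAC 134. Levels are given in CPM, that is counts relative to the size of the library, and a floor of 3 counts stands at 0.191 to 2.20 CPM, highest in WT sham 133. The floor uses total counts and the levels use scaled library sizes, so a level from 3 counts can differ slightly from it. Tmem173, the gene for STING, lay at 54.0 to 65.7 CPM in WT sham, 70.4 to 82.1 in WT TAC, 17.3 to 31.5 in KO sham and 19.6 to 30.4 in KO TAC. The endothelial genes Pecam1 and Cdh5 were at 1617 to 2256 and 3333 to 4422 CPM in all libraries, and Ptprc, the gene for CD45, at 0.09 to 2.26 CPM. KO sham 350 and KO sham 348 stood apart from the other libraries on principal components 1 and 3, and 316 and 214 genes were unexpectedly at 0 in them, against 3 to 22 in the others. The summed level of 17 fibroblast markers was 214 to 446 CPM in WT sham, 583 to 872 in WT TAC, 172 to 496 in KO sham and 242 to 403 in KO TAC. That of 14 pericyte and smooth muscle markers was 175 to 205, 154 to 222, 198 to 348 and 146 to 217 CPM in the same order. Endothelial markers (12 genes) summed to 16358 to 17525, 17182 to 18957, 16760 to 18505 and 14796 to 15742 CPM, lowest in KO TAC, and 14 cardiomyocyte markers to 330 to 374, 257 to 301, 277 to 386 and 126 to 224. The part of these other cells in the results was not tested, and in bulk samples fewer cells of a type and less RNA per cell cannot be told apart. Fits with a marker level as covariate are given below, but they cannot separate cell mixture from group where the markers follow group. The fibroblast sum of WT TAC overlapped neither that of WT sham nor that of KO TAC.

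Of the 37 members, 34 had enough counts to be tested, and Inhba, Fst and Twist1 did not. A member is called where its adjusted p in edgeR's quasi-likelihood test is under 0.05, with adjustment over the 12471 genes tested. TAC against sham in WT mice called 4 members, 2 higher and 2 lower, or 11.8% of those tested, where 2.59% of all genes tested were called (1.60% higher and 0.986% lower). In KO mice the same surgery called 12 members, 6 in each direction (35.3%), against 9.59% of all genes (4.65% higher and 4.94% lower). KO against WT after TAC called 14, of which 6 were higher and 8 lower (41.2%), against 29.8% of all genes (14.8% higher and 15.0% lower). After sham surgery KO against WT called 6, 4 higher and 2 lower (17.6%), against 9.21% of all genes (4.57% higher and 4.63% lower). The median log2 fold change of the members in these comparisons was 0.05, -0.13, -0.06 and 0.09, against 0.00, 0.01, -0.02 and -0.00 over all genes tested. These comparisons share groups with each other. The members were chosen with earlier results of these data known, so their shares are a description and not a test of enrichment. Without both KO sham 348 and KO sham 350, the counts became 7, 4, 18 and 1 in the same order, the 18 counting Inhba, which had enough counts for the filter in that fit. With 1 library left out, the 4 members in WT became 1 without WT sham 131, WT sham 132 or WT TAC 134 and 2 without WT TAC 137 or 138, and the 6 in KO against WT after sham became 3 without WT sham 132 or KO sham 348 and 2 without WT sham 133.

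Per length of transcript, the abundant members were Vim, the intermediate filament vimentin, at 578 CPM per kb averaged over all libraries, then Id1 at 446, Id3 at 439 and Eng at 435. Tgfb1 at 96.5 CPM per kb was the highest ligand, ahead of Bmp6 at 49.0. Acvrl1 at 93.0 and Bmpr2 at 76.4 CPM per kb were the highest signalling receptors, and Smad7 at 53.1 the highest SMAD. Bmpr1a at 0.564 and Cdh2, N-cadherin, at 0.188 CPM per kb were the lowest of the members tested.

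**Figure D1:**
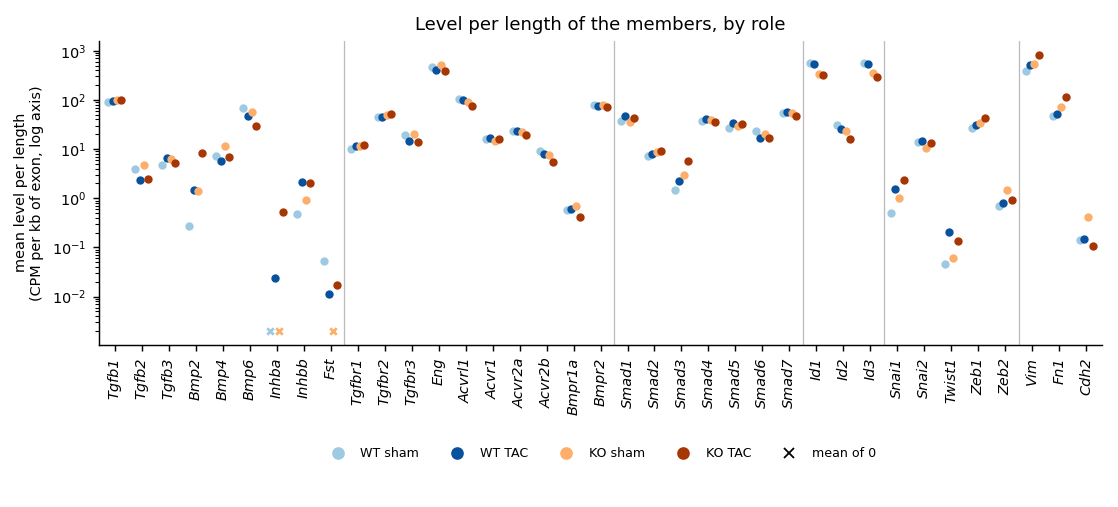
Level of each member per length of transcript (CPM per kb, log axis), grouped by role, with points for group means and crosses for a mean of 0. Vim, Id1, Id3 and Eng lie highest, and Inhba, Twist1 and Fst lie lowest.

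Among the ligands, Inhbb was called higher and Tgfb2 lower with TAC in both genotypes. Bmp2 was called higher and Bmp4 and Bmp6 lower with TAC in KO mice only, though each moved the same way in WT. Tgfb1, the most abundant ligand, passed no test. Inhbb encodes the activin beta B subunit (chromosome 1, 119415465 to 119422248, mm10). Libraries read 1.98, 1.77 and 2.26 CPM in WT sham, 6.27, 8.49, 10.4, 8.91 and 12.0 in WT TAC, 3.69, 3.75 and 4.11 in KO sham, and 9.89, 8.02, 9.10 and 7.99 in KO TAC. All TAC libraries lay above all sham libraries, and KO sham lay above WT sham. With TAC the log2 fold change was 2.25 ± 0.29 (SE) in WT (adjusted p = 0.000171). In KO it was 1.19 ± 0.26 (adjusted p = 0.00583). The KO call was lost with voom weights (adjusted p = 0.185), in a fit of only the 2 KO groups (0.0543), with the pericyte and smooth muscle covariate (0.0597), and without both KO sham 348 and KO sham 350 (0.0872). The log2 fold change under these settings was 1.23, 1.18, 1.19 and 1.23, about as large as with all libraries. The WT call was kept in all 24 alternatives.

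Bmp2, a BMP ligand on chromosome 2 (133553199 to 133562885), rose most in KO TAC. Libraries read 0.849, 1.26 and 0 CPM in WT sham, 4.56, 2.47, 4.44, 3.82 and 3.16 in WT TAC, 7.04, 3.15 and 0.411 in KO sham, and 15.8, 25.2, 32.1 and 12.6 in KO TAC. Every KO TAC library was above every other library, while WT TAC and KO sham overlapped. The log2 fold change was 2.50 ± 0.46 for TAC in KO (adjusted p = 0.00139) and 2.53 ± 0.37 for KO against WT after TAC (adjusted p = 2.09e-05). The former was lost with voom weights (adjusted p = 0.0708). Averaged over genotypes, TAC gave 2.20 ± 0.36 (adjusted p = 0.000407), and with the fibroblast covariate this fell to 0.50 and was not called (adjusted p = 0.52). In WT the TAC change of 1.90 ± 0.57 missed the threshold (adjusted p = 0.0843). It passed in a fit of only the WT groups (0.00799), with no filter on low counts (0.0293), without KO sham 348 (0.0362) and without KO sham 350 (0.0181). KO against WT after sham missed it too (1.93 ± 0.62, adjusted p = 0.0548), and passed when KO sham 349, KO sham 350 or KO TAC 354 was left out (0.00492 to 0.0481). This sham difference also passed with no filter on low counts (0.0236), the 5 CPM filter (0.0491) and the fibroblast covariate (0.0184).

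Tgfb2, a TGF-beta ligand on chromosome 1 (186623186 to 186705992), fell with TAC. It was at 22.3, 17.96 and 15.1 CPM in WT sham, 10.0, 9.76, 13.8, 10.7 and 12.0 in WT TAC, 24.6, 18.5 and 25.5 in KO sham, and 12.6, 11.3, 13.0 and 9.84 in KO TAC. No TAC library reached the lowest sham library. The change on the log2 scale was -0.76 ± 0.18 for WT (adjusted p = 0.0221) and -0.95 ± 0.18 for KO (adjusted p = 0.00188). The WT call was lost with the fibroblast (adjusted p = 0.103) and the pericyte and smooth muscle covariate (0.0534), and without WT sham 131 (0.272), WT sham 132 (0.0683), WT TAC 134 (0.0634) or WT TAC 137 (0.0566). With these covariates the log2 fold change was -0.90 and -0.70. The KO call was lost with the pericyte and smooth muscle covariate (-0.76, adjusted p = 0.0877) and without both KO sham 348 and KO sham 350 (-0.65, 0.192).

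Bmp6, the second ligand by level, stood at 141, 159 and 190 CPM in WT sham, 111, 97.5, 139, 127 and 99.2 in WT TAC, 102, 122 and 196 in KO sham, and 83.4, 47.6, 71.4 and 86.3 in KO TAC. The KO TAC libraries lay below all others. The log2 fold change was -0.95 ± 0.19 for TAC in KO (adjusted p = 0.00317) and -0.67 ± 0.17 for KO against WT after TAC (adjusted p = 0.00463). In WT the TAC change of -0.48 ± 0.18 missed the threshold (adjusted p = 0.196). It passed there with voom weights (0.0305) and in a fit of only the WT groups (0.013). Averaged over genotypes, TAC gave -0.71 ± 0.13 (adjusted p = 0.0013), lost with the fibroblast (-0.27, 0.454) and the pericyte and smooth muscle covariate (-0.58, 0.0513). The TAC effects were not shown to differ (-0.47 ± 0.27, adjusted p = 0.444). The TAC call in KO was lost with the fibroblast covariate (-0.61, adjusted p = 0.0672), the pericyte and smooth muscle covariate (-0.74, 0.119) and without both KO sham 348 and KO sham 350 (-0.75, 0.0903). Bmp4, a BMP ligand, was at 12.9, 15.8 and 13.5 CPM in WT sham, 10.6, 11.2, 11.0, 10.5 and 12.6 in WT TAC, 19.4, 22.8 and 26.5 in KO sham, and 15.6, 14.2, 9.82 and 15.4 in KO TAC. KO sham was the high group and overlapped no other. Bmp4 rose in KO against WT after sham (0.68 ± 0.20, adjusted p = 0.0359) and fell with TAC in KO (-0.73 ± 0.18, adjusted p = 0.0117). The first call was lost without WT sham 131 (adjusted p = 0.154), 132 (0.0717) or 133 (0.0906) or without KO sham 350 (0.0705), and without both KO sham 348 and KO sham 350 both were lost (0.141 and 0.115). Both were also lost in a fit of only the groups compared (0.146 and 0.0807) and with the pericyte and smooth muscle covariate (0.135 and 0.127), with log2 fold changes of 0.69 and -0.74 in the former and 0.65 and -0.70 in the latter. The fibroblast covariate ended the TAC call (-0.49, adjusted p = 0.119). In WT the TAC libraries also lay below the sham libraries, and the change of -0.35 ± 0.18 missed the threshold (adjusted p = 0.365). Averaged over genotypes, TAC gave -0.54 ± 0.13 (adjusted p = 0.00733), lost with the fibroblast (-0.20, 0.598) and the pericyte and smooth muscle covariate (-0.52, 0.0771). For Bmp4 too the TAC effects were not shown to differ (-0.38 ± 0.25, adjusted p = 0.52).

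The other ligands gave no call. Tgfb1 was between 180.9 and 225.4 CPM in all libraries, and Tgfb3 between 12.0 and 28.8. Inhba, the activin beta A subunit, had 10, 19, 6 and 0 counts in KO TAC, 2 counts in WT TAC 137, and 0 in every other library. Fst, follistatin, an activin inhibitor, had 8 counts over all libraries.

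**Figure D2:**
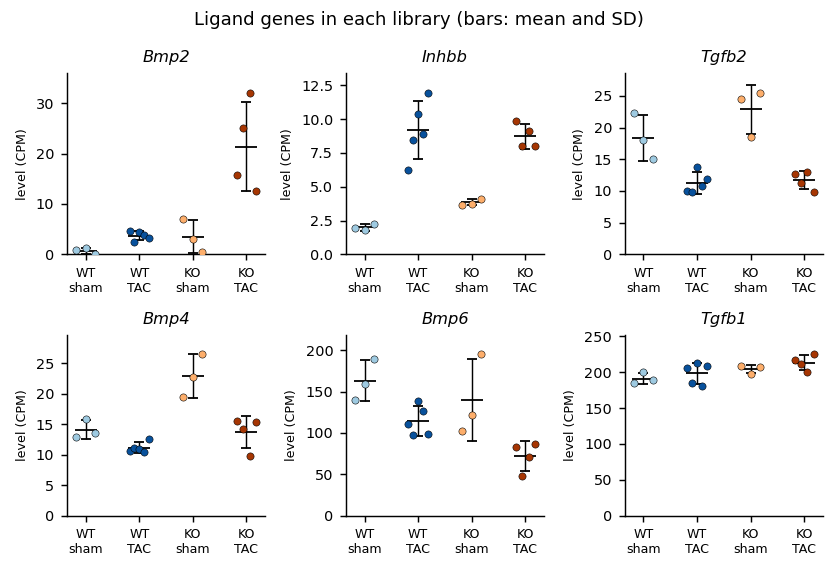
Level in CPM of 6 ligand genes in each library, by group, with bars for the mean and SD. Bmp2 is highest in the 4 KO TAC libraries, Inhbb is higher and Tgfb2 lower in TAC than in sham libraries, and the groups of Tgfb1 lie close together.

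Promoters (250 bases before to 50 after the start, from RefSeq, GRCm38.p6) were found for 24 members. Those of 2 ligands that fell with TAC are shown because both carry CAGAC, the SMAD binding letters, or GTCTG on the other strand, and the one of Bmp6 also CACCTG, which Snail and Zeb factors read. These letters, searched on both strands, are in capitals. Of 32851 mouse promoters, 49.6% hold CAGAC, 11.9% hold GGCGCC and 20.2% hold CACCTG or CAGGTG, against 33.3%, 20% and 10% of the 30 promoters of members. No shorter motif lies within a longer one. A match is a description and not a binding site. The promoters of Bmp4, which also fell with TAC in KO, and of Inhbb, which rose, hold no CAGAC on either strand. That of Bmp4 holds CAGGTG. The Tgfb2 promoter lies at chr1:186705940-186706239 on the minus strand and the Bmp6 promoter at chr13:38345466-38345765 on the plus strand.
Tgfb2: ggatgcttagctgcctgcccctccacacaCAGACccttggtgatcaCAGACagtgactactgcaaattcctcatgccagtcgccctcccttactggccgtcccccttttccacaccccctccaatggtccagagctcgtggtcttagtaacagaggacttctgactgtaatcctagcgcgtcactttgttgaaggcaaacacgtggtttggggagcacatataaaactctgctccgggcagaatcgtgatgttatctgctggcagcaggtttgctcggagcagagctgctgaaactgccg
Bmp6: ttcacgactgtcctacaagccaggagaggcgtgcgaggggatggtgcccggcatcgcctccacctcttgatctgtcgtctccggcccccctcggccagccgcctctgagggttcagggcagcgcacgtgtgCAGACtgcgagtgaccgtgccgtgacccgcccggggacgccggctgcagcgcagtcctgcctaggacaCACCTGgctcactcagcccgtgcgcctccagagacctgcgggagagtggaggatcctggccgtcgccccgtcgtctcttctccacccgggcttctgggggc

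Tgfbr3, the co-receptor betaglycan, was called lower with TAC in both genotypes and Eng in KO. After TAC the KO libraries had less Acvrl1 and Acvr2a and slightly more Tgfbr2 than WT. Tgfbr3 read 135, 113 and 110 CPM in WT sham, 86.4, 83.9, 89.7, 94.5 and 84.0 in WT TAC, 142, 104 and 117 in KO sham, and 100, 73.1, 86.8 and 79.3 in KO TAC. No TAC library reached the sham libraries of its genotype. On the log2 scale WT changed by -0.46 ± 0.11 (adjusted p = 0.0268) and KO by -0.51 ± 0.11 (adjusted p = 0.00675). The WT call was lost without WT sham 131 (adjusted p = 0.281), WT sham 132 (0.0553), WT TAC 134 (0.0633) or WT TAC 138 (0.0638), and the KO call without KO sham 348 (0.0523). The pericyte and smooth muscle covariate ended both (-0.40, adjusted p = 0.0578 in WT and -0.34, 0.228 in KO). The KO call was further lost with voom weights (-0.43, adjusted p = 0.106), in a fit of only the KO groups (-0.51, 0.0600) and without both KO sham 348 and KO sham 350 (-0.28, 0.44).

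Eng was at 1595, 1906 and 1616 CPM in WT sham, 1397, 1304, 1541, 1383 and 1558 in WT TAC, 1708, 1617 and 2131 in KO sham, and 1421, 1349, 1426 and 1349 in KO TAC. TAC libraries lay below the sham libraries in each genotype. Eng fell by 0.39 ± 0.09 on the log2 scale in KO (adjusted p = 0.0101). In WT the change of -0.25 ± 0.09 missed the threshold (0.158) and passed with voom weights (-0.24, 0.0204). Averaged over genotypes, TAC gave -0.32 ± 0.06 (adjusted p = 0.00221), lost with the fibroblast (-0.17, 0.361) and the pericyte and smooth muscle covariate (-0.27, 0.0728). The TAC effects were not shown to differ between genotypes (-0.14 ± 0.13, adjusted p = 0.657). In KO the call did not hold without KO sham 350 (adjusted p = 0.0923), without both KO sham 348 and KO sham 350 (-0.21, 0.479), with voom weights (-0.31, 0.12), and with the fibroblast (-0.28, 0.114) or the pericyte and smooth muscle covariate (-0.31, 0.228).

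Acvrl1, the receptor ALK1, was at 356, 409 and 352 CPM in WT sham, 325, 328, 426, 353 and 398 in WT TAC, 281, 319 and 405 in KO sham, and 285, 256, 263 and 301 in KO TAC. The KO TAC libraries lay below the WT TAC ones without overlap. After TAC the difference was -0.41 ± 0.10 (adjusted p = 0.00373), kept in all 24 alternatives. Acvr2a, an activin type II receptor, was at 147, 132 and 120 CPM in WT sham, 143, 123, 129, 147 and 135 in WT TAC, 135, 138 and 106 in KO sham, and 111, 106, 114 and 111 in KO TAC. KO TAC was again below WT TAC without overlap, by -0.29 ± 0.08 (adjusted p = 0.0114), lost with the fibroblast covariate (-0.15, 0.314). Tgfbr2, the TGF-beta type II receptor, was at 228, 221 and 208 CPM in WT sham, 224, 232, 215, 207 and 210 in WT TAC, 245, 232 and 226 in KO sham, and 256, 257, 246 and 226 in KO TAC. WT TAC and KO TAC overlapped, and the change of 0.18 ± 0.06 (adjusted p = 0.0419) did not hold when 1 of WT sham 132, WT TAC 136, 137 and 138, and KO TAC 351, 352 and 353 was left out, with adjusted p of 0.0534 to 0.0985. The Tgfbr2 call was also lost with no filter on low counts (0.19, adjusted p = 0.0616). The fibroblast (0.22, 0.0679) and the pericyte and smooth muscle covariate (0.17, 0.0618) ended it too.

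The remaining receptors gave no call with all libraries in the fit. Over all libraries Tgfbr1 lay at 48.9 to 74.3 CPM, Acvr1 at 44.3 to 59.0, Acvr2b at 6.54 to 19.3, Bmpr1a at 0.856 to 6.79 and Bmpr2 at 233 to 322. Acvr2b, an activin type II receptor, missed the threshold in KO against WT after TAC (-0.55 ± 0.22, adjusted p = 0.0614). It was called lower there when KO sham 348, KO sham 350 or KO TAC 353 was left out (adjusted p of 0.0180 to 0.0445). The same call came with voom weights (0.00699), in a fit of only the TAC groups (0.0164) and with the fibroblast covariate (0.00822).

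Of the SMAD genes, Smad3 moved most. It was at 8.96, 9.09 and 4.52 CPM in WT sham, 11.1, 10.4, 12.0, 10.8 and 12.1 in WT TAC, 12.0, 10.4 and 22.6 in KO sham, and 20.2, 38.2, 34.7 and 24.0 in KO TAC. KO TAC lay above all WT libraries, and 1 KO sham library, 350, lay within its range. Smad3 rose by 1.38 ± 0.21 in KO against WT after TAC (adjusted p = 3.30e-05), kept in all 24 alternatives, and by 1.01 ± 0.25 with TAC in KO (adjusted p = 0.0130). The TAC call was lost without KO TAC 352 (adjusted p = 0.055), in a fit of only the KO groups (1.00, 0.0927) and with the pericyte and smooth muscle covariate (1.03, 0.146), and was kept without both KO sham 348 and KO sham 350 (1.51 ± 0.30, adjusted p = 0.0120). Smad4, the shared SMAD, read 122, 131 and 126 CPM in WT sham, 136, 132, 132, 160 and 133 in WT TAC, 133, 129 and 123 in KO sham, and 113, 115, 126 and 126 in KO TAC. Smad7, an inhibitory SMAD, read 264, 232 and 221 CPM in WT sham, 276, 243, 234, 237 and 266 in WT TAC, 209, 224 and 285 in KO sham, and 215, 183, 224 and 226 in KO TAC. In both genes KO TAC lay just below WT TAC with no overlap. On the log2 scale these differences were -0.21 ± 0.07 for Smad4 (adjusted p = 0.0323) and -0.25 ± 0.09 for Smad7 (adjusted p = 0.0458). Smad4 was lost without WT TAC 134, WT TAC 137, KO TAC 351 or KO TAC 352 (adjusted p of 0.0557 to 0.124), and Smad7 without any 1 of the WT libraries or the KO TAC libraries (0.0517 to 0.204). Both were also lost with DESeq2, RLE factors, no filter on low counts and the 5 CPM filter. There adjusted p was 0.0502 to 0.0703 for Smad4 (-0.20 to -0.18) and 0.0555 to 0.0865 for Smad7 (-0.23 to -0.21). The Smad4 call was further lost with the fibroblast (-0.18, 0.195) and the pericyte and smooth muscle covariate (-0.19, 0.0555).

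Smad1 and Smad5, the BMP SMADs, and Snai1, a Snail factor, were called only for TAC averaged over both genotypes, where 15 members were called (44.1%) against 10.7% of all genes. Smad1 was at 113, 112 and 123 CPM in WT sham, 150, 141, 138, 145 and 135 in WT TAC, 96.2, 119 and 111 in KO sham, and 140, 141, 114 and 125 in KO TAC. Smad5 was at 214, 192 and 168 CPM in WT sham, 250, 255, 218, 253 and 219 in WT TAC, 224, 210 and 208 in KO sham, and 219, 246, 229 and 221 in KO TAC. Both separated TAC from sham in WT and overlapped in KO. The average log2 fold change was 0.28 ± 0.06 for Smad1 (adjusted p = 0.00664) and 0.20 ± 0.06 for Smad5 (adjusted p = 0.0357). Snai1 was at 0.472, 1.18 and 0.753 CPM in WT sham, 1.65, 3.28, 1.504, 1.45 and 4.54 in WT TAC, 0.782, 1.83 and 2.26 in KO sham, and 3.99, 3.73, 3.99 and 3.42 in KO TAC. Its TAC libraries lay above the sham libraries of each genotype, with an average of 1.39 ± 0.38 (adjusted p = 0.0227). The Snai1 value of WT sham 133 was below that library's floor of 2.20 CPM. That floor exceeds the WT TAC values of 1.45, 1.504 and 1.65 CPM, so the separation from WT sham 133 is uncertain. Smad5 was not called when 1 of WT sham 132 and 133, WT TAC 134 and 137, KO sham 350, and KO TAC 352 and 353 was left out (0.0501 to 0.0878), and Snai1 without WT sham 131 (0.0886). With the fibroblast covariate all these calls were lost, with a log2 fold change of 0.37 for Smad1 (adjusted p = 0.0653), 0.18 for Smad5 (0.333) and 2.33 for Snai1 (0.0578), larger than without it for Smad1 and Snai1. They were also lost with the pericyte and smooth muscle covariate (0.25, 0.20 and 1.35, with adjusted p of 0.0916, 0.185 and 0.133) and without both KO sham 348 and KO sham 350 (0.22, 0.22 and 1.27, with adjusted p of 0.0825, 0.104 and 0.0594). Smad6, an inhibitory SMAD at 34.2 to 79.4 CPM, was called in no comparison of the main fit. For TAC averaged it was called lower without KO sham 348 or KO TAC 354 (0.0295 to 0.0398) and with no filter on low counts (0.039). With TAC in WT it was called lower with voom weights (0.0286) and in a fit of only the WT groups (0.00834). In single genotypes Smad1 was called without KO sham 348 in WT (0.0498) and without KO sham 349 or KO TAC 353 in KO (0.0247 to 0.0437), and Smad5 without KO sham 350 in WT (0.0398). With all libraries the WT change was 0.30 ± 0.09 for Smad1 (adjusted p = 0.0818) and 0.31 ± 0.09 for Smad5 (0.058). In WT both were called with DESeq2 (0.0393 and 0.0213) and voom weights (0.0117 and 0.0113). Smad1 was also called in a fit of only the WT groups (0.0256), and in KO with DESeq2 (0.040).

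**Figure D3:**
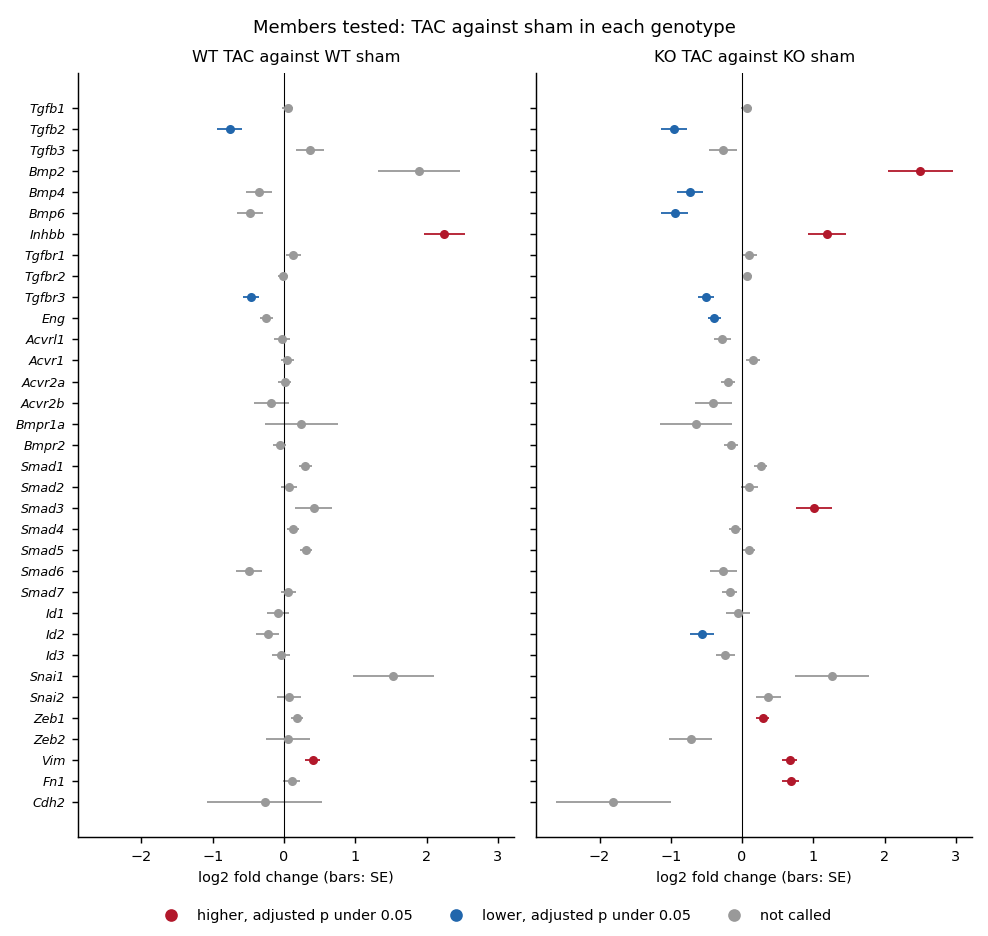
Log2 fold change of TAC against sham for the 34 members tested, in WT (left) and KO (right), with bars for the SE and colour for a call at an adjusted p under 0.05. Inhbb is furthest right in WT and Bmp2 in KO, and Tgfb2 and Tgfbr3 are lower in both.

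After TAC the 3 ID genes, which encode inhibitors of basic helix-loop-helix factors, were lower in KO than in WT, and after sham Id1 and Id3 were. TAC itself gave no call for Id1 or Id3 in either genotype. Id1 (chromosome 2, 152736274 to 152737410) was at 482, 481 and 598 CPM in WT sham, 470, 358, 547, 439 and 629 in WT TAC, 263, 347 and 310 in KO sham, and 286, 250, 239 and 403 in KO TAC. KO sham lay below WT sham, and after TAC KO 354 overlapped WT 135. Id3 (chromosome 4, 136143822 to 136145392) was at 492, 505 and 593 CPM in WT sham, 556, 397, 530, 488 and 580 in WT TAC, 323, 349 and 328 in KO sham, and 296, 227, 248 and 365 in KO TAC. All KO libraries of Id3 lay below all WT libraries.

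KO against WT gave log2 fold changes in Id1 of -0.76 ± 0.18 after sham (adjusted p = 0.0119) and -0.73 ± 0.15 after TAC (adjusted p = 0.000727). In Id3 they were -0.66 ± 0.14 (adjusted p = 0.00562) and -0.85 ± 0.12 (adjusted p = 1.26e-05). Both calls after TAC were kept in all 24 alternatives. After sham, the pericyte and smooth muscle covariate ended both (-0.62, adjusted p = 0.13 for Id1 and -0.62, 0.0508 for Id3). Id1 was lost without WT sham 133 (adjusted p = 0.063) or KO sham 348 (0.0589), and without both KO sham 348 and KO sham 350 Id1 (-0.58, 0.276) and Id3 (-0.60, 0.145) were lost. Id2 was at 33.9, 42.8 and 40.6 CPM in WT sham, 39.2, 32.9, 33.6, 31.0 and 28.7 in WT TAC, 26.6, 26.9 and 35.8 in KO sham, and 22.0, 15.8, 16.9 and 25.7 in KO TAC. KO TAC was the low group and overlapped no other. Id2 fell by 0.73 ± 0.14 on the log2 scale in KO against WT after TAC (adjusted p = 0.000544), and with TAC in KO by 0.56 ± 0.17 (adjusted p = 0.0363). After sham the groups overlapped, and the KO against WT value of -0.40 ± 0.18 missed the threshold (adjusted p = 0.175). The TAC call did not hold when WT sham 133, WT TAC 136, KO sham 350, KO TAC 352 or KO TAC 353 was left out (adjusted p of 0.0509 to 0.145). It was also lost with voom weights (-0.51, 0.262), in a fit of only the KO groups (-0.57, 0.156), with the fibroblast (-0.33, 0.26) or the pericyte and smooth muscle covariate (-0.36, 0.449) and without both KO sham 348 and KO sham 350 (-0.42, 0.421).

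Promoters of Id3 and Id2 are shown because these targets moved with genotype. The capitals mark CAGAC or GTCTG in Id3 and GGCGCC, letters found in BMP-responsive SMAD sites, in Id2. They lie at chr4:136143572-136143871 on the plus strand and chr12:25096043-25096342 on the minus strand.
Id3: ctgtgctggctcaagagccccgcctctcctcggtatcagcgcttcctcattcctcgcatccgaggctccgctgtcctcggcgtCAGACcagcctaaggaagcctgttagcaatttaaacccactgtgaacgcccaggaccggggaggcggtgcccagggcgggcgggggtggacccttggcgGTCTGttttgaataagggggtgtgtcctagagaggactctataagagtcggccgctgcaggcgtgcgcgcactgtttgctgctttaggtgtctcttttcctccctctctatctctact
Id2: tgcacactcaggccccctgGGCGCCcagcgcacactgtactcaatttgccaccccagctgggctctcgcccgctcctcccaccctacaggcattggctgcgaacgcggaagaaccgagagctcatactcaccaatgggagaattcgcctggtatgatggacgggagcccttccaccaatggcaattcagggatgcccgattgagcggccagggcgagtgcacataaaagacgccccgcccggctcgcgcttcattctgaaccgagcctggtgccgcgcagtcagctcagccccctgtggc

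Among mesenchymal genes, Fn1, Vim and Zeb1 were higher in KO than in WT after both surgeries, and Vim rose with TAC in both genotypes. Fn1 encodes fibronectin, an extracellular matrix protein (chromosome 1, 71585523 to 71653171). It was at 434, 420 and 306 CPM in WT sham, 384, 428, 459, 342 and 492 in WT TAC, 669, 579 and 542 in KO sham, and 1037, 889, 962 and 938 in KO TAC. Every KO library lay above every WT library, and KO TAC above KO sham. Fn1 rose by 1.18 ± 0.10 in KO against WT after TAC (adjusted p = 2.66e-08) and by 0.61 ± 0.13 after sham (adjusted p = 0.00453). With TAC it rose in KO by 0.68 ± 0.12 (adjusted p = 0.00100), and the WT change of 0.11 ± 0.11 missed the threshold (adjusted p = 0.757). The KO TAC calls were kept in all 24 alternatives, and the sham call was lost with the pericyte and smooth muscle covariate (0.50, 0.0577) and without both KO sham 348 and KO sham 350 (0.56, 0.0773).

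Vim was at 782, 715 and 648 CPM in WT sham, 994, 872, 898, 1064 and 913 in WT TAC, 1066, 1082 and 745 in KO sham, and 1446, 1686, 1560 and 1435 in KO TAC. KO TAC lay above every other library. The log2 fold change was 0.69 ± 0.10 for KO against WT after TAC (adjusted p = 1.08e-05) and 0.67 ± 0.11 for TAC in KO (adjusted p = 0.000609), the latter lost without both KO sham 348 and KO sham 350 (0.51, 0.0533). It was 0.40 ± 0.11 for TAC in WT (adjusted p = 0.0447), lost with the fibroblast covariate (0.076, 0.827), the pericyte and smooth muscle covariate (0.35, 0.0821), and when 1 of WT sham 131 to 133, WT TAC 134, 136, 137 and 138, and KO TAC 351 to 353 was left out (0.0505 to 0.226). For KO against WT after sham it was 0.43 ± 0.12 (adjusted p = 0.0257), lost when 1 of WT sham 132 and 133 and KO sham 348 and 349 was left out (0.0773 to 0.117) and in a fit of only the sham groups (0.131). In KO against WT after TAC the fibroblast marker sum was lower, at 242 to 403 against 583 to 872 CPM. That of 7 endocardial markers was higher, at 170 to 203 against 122 to 152 CPM. The part of either cell type in the Vim and Fn1 values was not tested.

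Zeb1, a zinc finger transcription factor, was at 168, 165 and 145 CPM in WT sham, 185, 188, 181, 178 and 184 in WT TAC, 233, 176 and 189 in KO sham, and 226, 245, 260 and 244 in KO TAC. KO TAC lay above WT TAC with no overlap, and KO sham above WT sham. It rose by 0.41 ± 0.08 in KO against WT after TAC (adjusted p = 0.000306), kept in all 24 alternatives. Smaller rises with TAC in KO (0.29 ± 0.09, adjusted p = 0.0435) and in KO against WT after sham (0.31 ± 0.10, adjusted p = 0.0488) were less firm. The first did not hold when 1 of WT sham 132, WT TAC 134 and 138, KO sham 349 and 350, and KO TAC 352 to 354 was left out (adjusted p of 0.0505 to 0.129). It was also lost with voom weights (0.34, adjusted p = 0.0808) and in a fit of only the KO groups (0.28, 0.172). The fibroblast (0.20, 0.234) and the pericyte and smooth muscle covariate (0.35, 0.142) ended it too. The second did not hold when any 1 WT library, KO sham 348, or 1 of KO TAC 351 to 353 was left out (0.0535 to 0.261). Without both KO sham 348 and KO sham 350 its log2 fold change was 0.13. The second was also lost with voom weights (0.25, adjusted p = 0.204) and with no filter on low counts (0.31, 0.0557). A fit of only the sham groups (0.31, 0.236) and the pericyte and smooth muscle covariate (0.26, 0.256) ended it too. Averaged over surgeries, KO against WT called 14 members (41.2%) against 30.8% of all genes, and Smad2 (0.23 ± 0.08, adjusted p = 0.0329) and Zeb2 (0.56 ± 0.21, adjusted p = 0.04995) were called there alone. Smad2, a TGF-beta SMAD, was at 72.2, 67.3 and 61.0 CPM in WT sham, 67.2, 71.6, 66.2, 77.1 and 74.2 in WT TAC, 98.0, 72.9 and 64.2 in KO sham, and 79.4, 93.2, 85.7 and 79.99 in KO TAC. Zeb2 was at 8.21, 7.17 and 3.76 CPM in WT sham, 5.32, 6.69, 9.55, 5.72 and 9.62 in WT TAC, 20.4, 8.12 and 12.3 in KO sham, and 8.13, 10.8, 7.26 and 6.70 in KO TAC. For Smad2 KO TAC lay above WT TAC, and for Zeb2 KO sham 348 was the highest library. That Smad2 difference after TAC missed the threshold (0.25 ± 0.10, adjusted p = 0.0629). It passed with DESeq2 (0.0323), voom weights (0.0073), RLE factors (0.0363), no filter on low counts (0.0494) and the 5 CPM filter (0.0312). It also passed in a fit of only the TAC groups (0.0076), with the fibroblast covariate (0.0023), and without KO sham 348 or KO sham 350 (0.0176 to 0.0191). The Smad2 call averaged over surgeries did not hold when 1 of WT sham 132 and 133, WT TAC 134 and 136, KO sham 348, and KO TAC 352 was left out (0.053 to 0.149). The same was true of Zeb2 for WT sham 131 to 133, WT TAC 134, 135 and 137, KO sham 348, and KO TAC 351 to 353 (0.0557 to 0.22). The Zeb2 call was also lost with voom weights and with the pericyte and smooth muscle covariate. Neither call held without both KO sham 348 and KO sham 350, a fit counted among the 23 alternatives for this contrast. Over these alternatives the log2 fold change was 0.18 to 0.76 for Zeb2 and 0.13 to 0.37 for Smad2. Snai2 (18.3 to 37.1 CPM) and Cdh2 (0 to 3.13 CPM) were called in no comparison, and Twist1 had 38 counts in all, 15 of them in WT TAC 136.

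**Figure D4:**
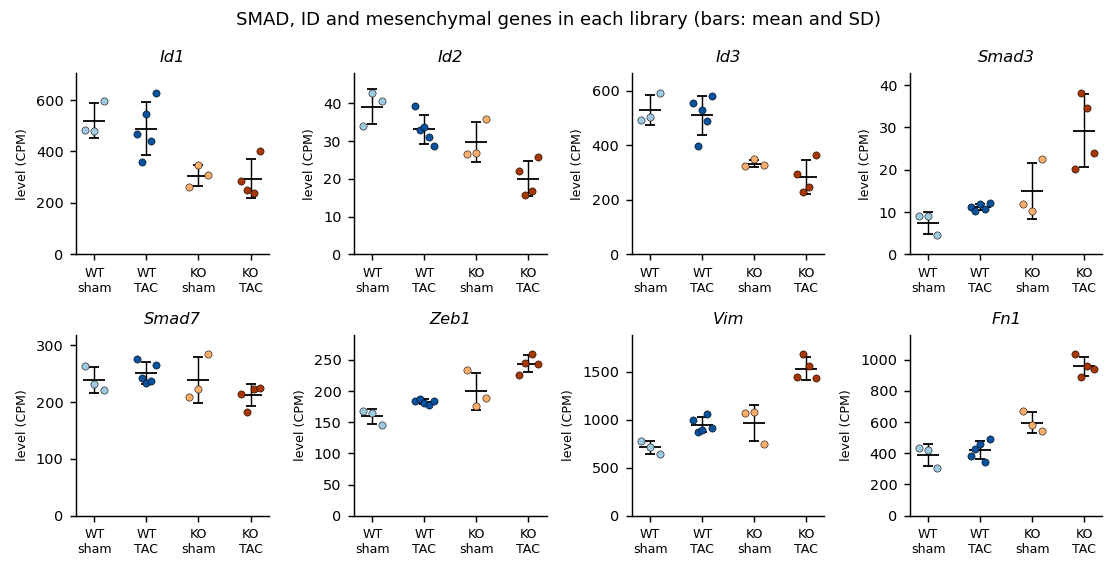
Level in CPM of 8 members in each library, by group, with bars for the mean and SD. Id1 and Id3 lie lower and Fn1 higher in KO than in WT, and Smad3 and Vim are highest in KO TAC.

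**Figure D5:**
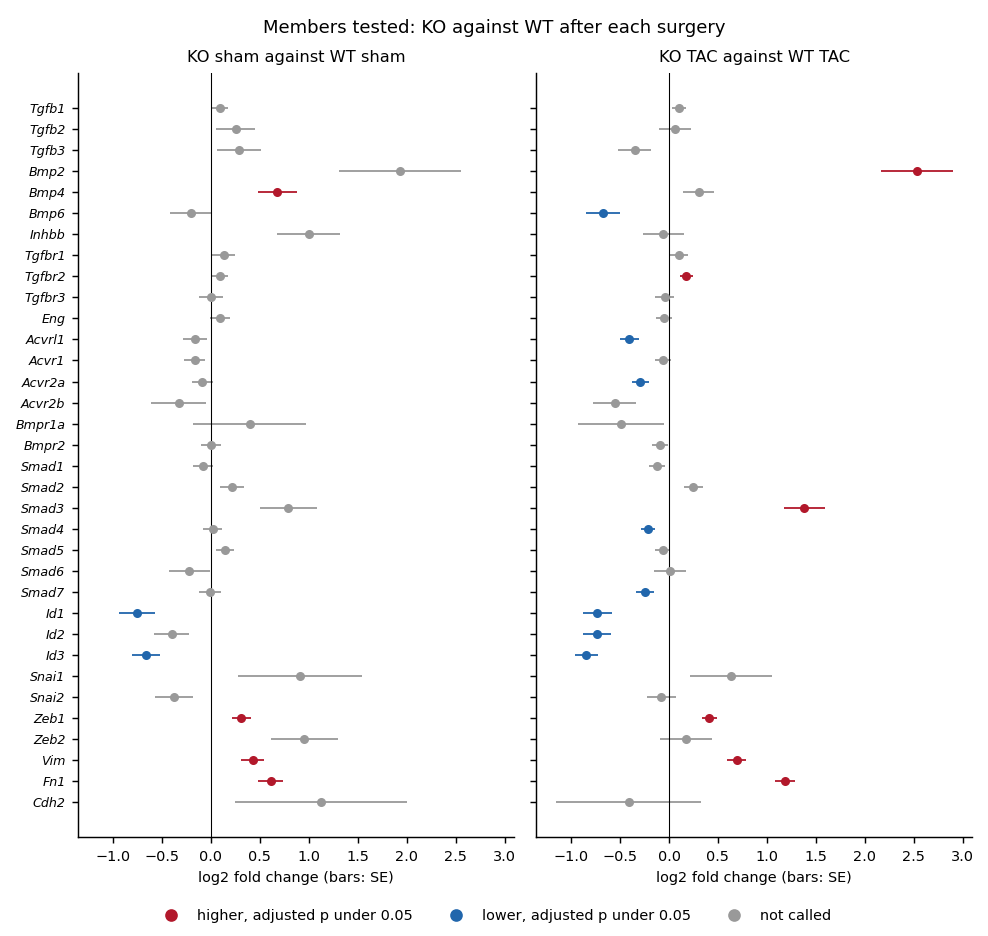
Log2 fold change of KO against WT for the 34 members tested, after sham (left) and TAC (right), with bars for the SE and colour for a call at an adjusted p under 0.05. The ID genes lie to the left and Fn1, Vim and Zeb1 to the right in both.

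No member passed the test of the difference between the TAC effects (KO minus WT), in which 0.690% of all genes were called. At an unadjusted p under 0.05 there were 3 members, against 14.6% of all genes. Fn1 differed by 0.57 ± 0.16 (unadjusted p = 0.00204, adjusted p = 0.0969), and DESeq2 (adjusted p = 0.0275) and edgeR with no filter on low counts (0.0462) called it. Inhbb differed by -1.06 ± 0.39 (adjusted p = 0.195) and Tgfb3 by -0.64 ± 0.28 (adjusted p = 0.295). Bmp2, called for TAC in KO and not in WT, gave 0.60 ± 0.76 (adjusted p = 0.764), so its TAC effects were not shown to differ.

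Other genes of these pathways were counted in lists, some of which share genes. Col1a1, Col1a2 and Col3a1 are targets and fibroblast markers, and Postn, Tcf21 and Pdgfra are transition genes and fibroblast markers. Acta2, Tagln, Cnn1, Pdgfrb and Notch3 are transition genes and pericyte and smooth muscle markers. Ltbp2, Fstl3, Bambi, Pmepa1 and Skil are on 2 pathway lists. Of 17 fibroblast markers tested, 9 rose and 0 fell with TAC in WT (52.9%). In KO against WT after TAC 0 rose and 11 fell (64.7%). Shares called are given against the 2.59% of all genes called for TAC in WT, 9.59% for TAC in KO, 29.8% for KO against WT after TAC and 9.21% after sham. The lists were chosen with earlier results of these data known, so these shares describe the lists and are not a test of enrichment. Of 35 known transcriptional targets tested, 10 rose and 1 fell with TAC in WT (31.4%), 9 rose and 2 fell with TAC in KO (31.4%), and 10 rose and 11 fell in KO against WT after TAC (60%). In WT with TAC, Ctgf, a matricellular growth factor, rose by 1.08 ± 0.16 (adjusted p = 0.000516) and Itga5, the fibronectin receptor alpha chain, by 0.54 ± 0.08 (adjusted p = 0.000480). In KO against WT after TAC, Apln, which encodes the peptide apelin, was higher by 2.84 ± 0.14 (adjusted p = 5.31e-12). Cd36, a fatty acid carrier, fell there by 1.02 ± 0.09 (adjusted p = 2.67e-08). Of 24 further transition genes tested, 5 rose and 2 fell with TAC in WT (29.2%), 6 rose and 2 fell in KO (33.3%), and 7 rose and 4 fell in KO against WT after TAC (45.8%). Mmp14, a membrane matrix protease, rose with TAC by 1.22 ± 0.18 in WT mice (adjusted p = 0.000528) and by 1.35 ± 0.17 in KO mice (adjusted p = 4.44e-05). In KO against WT after TAC, Tnc, the matrix protein tenascin C, rose by 2.37 ± 0.19 (adjusted p = 9.97e-09), and the mesenchymal receptor Pdgfra, also on the fibroblast marker list, fell by 1.65 ± 0.16 (adjusted p = 1.58e-07).

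Of 12 other TGF-beta and activin ligands, binding proteins and activators tested, 6 rose and 1 fell in KO against WT after TAC (58.3%), 5 rose and 1 fell with TAC in KO (50%), and 2 rose with TAC in WT (16.7%). Thbs1, thrombospondin 1, an activator of latent TGF-beta, rose by 1.29 ± 0.21 in KO against WT after TAC (adjusted p = 7.77e-05). Ltbp3, a latent TGF-beta binding protein, rose there by 0.97 ± 0.14 (adjusted p = 1.70e-05). Of 15 other BMP ligands and modulators, 4 rose and 3 fell in KO against WT after TAC (46.7%), among them the co-receptor Neo1, which fell by 0.58 ± 0.10 (adjusted p = 0.000123). Of 27 intracellular regulators 9 rose and 2 fell there (40.7%), and with TAC in WT 3 rose (11.1%), among them Pmepa1, an inhibitor of TGF-beta signalling, by 0.92 ± 0.14 (adjusted p = 0.000752), a call lost with the fibroblast covariate. Of 4 other receptors tested 1 rose and 1 fell in KO against WT after TAC (50%), and Cd109, a TGF-beta co-receptor, was the one that rose (1.05 ± 0.16, adjusted p = 2.67e-05). With TAC in KO, 2 regulators rose and 2 fell (14.8%), 2 other receptors rose (50%), and 1 BMP gene rose (6.67%, below the share of all genes). In WT 1 other receptor (25%) and 1 BMP gene (6.67%) rose. In KO against WT after sham, 6 targets were higher and 2 lower (22.9%), 4 regulators higher and 1 lower (18.5%), and 2 transition genes higher and 1 lower (12.5%). There 1 TGF-beta or activin gene was higher (8.33%) and 1 BMP gene lower (6.67%), both shares below that of all genes.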

How the data were processed

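RNA from sorted CD45-, CD31+ heart cells was purified with the RNeasy Plus kit and made into TruSeq libraries, per the labels' protocols. Reads were aligned with HISAT2 2.1.0 to mm10, per the submitters' processing notes, and the authors deposited 1 table of raw counts per gene. Per the file headers, featureCounts 1.6.2 made the counts, at strand setting 2 and with no option for multimapping or multiply overlapping reads, and the exon length of each gene is another value deposited by the authors. Groups came from the genotype and surgery labels, and 0 columns were left unused. Separate mice gave the libraries, and their numbers pair none of them.

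The test was edgeR's (4.0.16, under R 4.3.3): filterByExpr (a minimum count of 10 and a total of 15) left 12471 genes, libraries were scaled by TMM, and 1 quasi-likelihood fit of all 15 libraries with a coefficient per group and 11 residual degrees of freedom gave 7 contrasts. P-values are two-sided, adjusted by Benjamini-Hochberg over all genes tested. The SE is the log2 fold change divided by the root of the F statistic. CPM uses TMM-scaled library sizes, and CPM per kb divides it by exon length. Floors use unscaled total counts and cover counting error only, because PCR copies cannot be told from separate molecules. The fit was tested on simulated data.

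Members and lists were chosen with earlier results of these data known. Every member called in any contrast is given with its library values, and up to 4 genes with the smallest p per list and contrast could be named. Alternatives were DESeq2 1.42.0, limma 3.58.1 voom with sample quality weights, RLE factors, all genes kept whatever their counts, genes at 5 CPM or more in 3 libraries, only the groups compared, the mean level of fibroblast or of pericyte and smooth muscle markers as covariate, leaving out each library, and leaving out KO sham 348 and 350 together, which leaves 1 KO sham library, assumed to vary like the others.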

Additional observations from a re-analysis of the deposited data

Results flagged for a closer look

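In 4 of 74 groups of 4 or 5 libraries screened, 1 library lay farther from the others than Dixon's 95% limit allows. Chance flags about 1 in 20, or 3.7 of 74. Smad4 was at 159.8 CPM in WT TAC 137, with the other 4 WT TAC libraries at 132 to 136. Twist1 was at 1.128 CPM in WT TAC 136, from 15 counts, the others lying between 0.0669 and 0.19. Inhba was at 0.1817 CPM in WT TAC 137, from 2 counts, and at 0 in the other 4. Fst was at 0.1595 CPM in KO TAC 351, from 2 counts, and at 0 in the other 3. Of these, Inhba, Fst and Twist1 were too low to be tested.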

How the results depend on the processing

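Over 24 alternatives, 65 calls on members gave 1530 values, of which 1299 kept the call, 231 lost it and 0 changed direction. For TAC in WT the 4 calls became 9 with voom, 8 with only the groups compared, 2 with the fibroblast covariate, 1 with the pericyte and smooth muscle covariate and 7 without both KO sham 348 and KO sham 350, and 1 to 6 leaving out 1 library. In KO TAC against KO sham the 12 became 6, 6, 7, 3 and 4 (9 to 13 leaving out 1 library). In KO sham against WT sham the 6 became 3 with voom, 3 with only the groups compared, 1 with the pericyte and smooth muscle covariate and 1 without both KO sham libraries (2 to 8). The difference of the TAC effects went from 0 to 1 with DESeq2 and with no filter (0 to 0 leaving out 1 library). TAC averaged went from 15 to 4 with the fibroblast and 6 with the pericyte and smooth muscle covariate (13 to 16). KO against WT called 14 after TAC and 14 averaged, and 11 to 16 in both leaving out 1 library. With the fibroblast covariate Ltbp2 in WT TAC against WT sham turned to -0.027, and Col3a1 turned to -0.29 there, to 0.17 in KO TAC against WT TAC and to -0.42 for TAC averaged. The cause was not tested. Over all genes, WT TAC calls went from 323 to 507 with DESeq2, 1146 with voom, 723 with only the groups compared, 166 and 209 with the covariates and 695 without both KO sham libraries. KO TAC calls went from 1196 to 295 with voom, 374 with only the groups compared, 196 with the pericyte covariate and 191 without both. KO sham against WT sham went from 1148 to 463, 289, 492 and 394 in that order. The difference went from 86 to 317 with DESeq2, 174 with no filter, 307 and 8 with the covariates and 3 without both, and TAC averaged from 1333 to 471 and 347 with the covariates and 824 without both. No paired analysis was possible because the groups share no mouse numbers. WT sham 133, with 1362346 counts, limits the precision of low members.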
